A study of Mus musculus with 32 samples.

Results

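Liver triacylglycerol is built by joining fatty acids to a glycerol backbone, and 9 genes of this route were followed here across a maternal and an offspring diet in mice. They were Gpam, Agpat2, Agpat3, Lpin1, Lpin2, Mogat1, Dgat1, Dgat2 and Mttp, taken by gene symbol from the probe annotation of the arrays. The symbols matched 11 of 25697 probes on the female array version and 10 of 24613 on the male version. All 9 genes had a probe on both versions. After the filter on dim probes, 9 of these genes were among 9446 features tested in females, and 8 among 10297 in males. Lpin1 was the gene lost in males.

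Total liver RNA of C57bl/6J OlaHsd mice aged 20 weeks was hybridised to bead arrays, 1 array per mouse sample and 32 in all. Dams ate a low-protein diet (9%, with 90 g casein per kg) or the 18% control diet while pregnant, and from 6 weeks of age their offspring were given a high-fat diet (36% SF, an abbreviation the labels do not spell out) or a control diet for 14 weeks. In each sex the groups were high-fat after 9%, control after 9%, high-fat after 18% and control after 18%, with 4 biological replicates in each. The labels do not give litters, so offspring of 1 dam within a group cannot be recognised and p-values may then be too small. Females and males were run on different array versions, so levels were not set against each other between the sexes.

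In the glycerol phosphate pathway, Gpam (mitochondrial glycerol-3-phosphate acyltransferase) adds the first acyl group and enzymes of the Agpat family add the next one. The lipins remove the phosphate to give diacylglycerol, which Mogat1 can also make by acylating monoacylglycerol. Dgat1 and Dgat2, which are unrelated in sequence, add the last acyl group. Mttp makes no triacylglycerol; it loads lipid onto apolipoprotein B for secretion, so it stands at the exit of the route. Mogat1 is known for its low level in normal adult mouse liver and its increase in fatty liver.

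Mogat1 is the gene of the 9 that passed the test, and Lpin2 is described at length for its maternal difference in females, so the start regions of these 2 genes are shown. Both are RefSeq windows on GRCm38.p6, plus strand, covering 250 bases before the annotated start and 50 from it, written 5′ to 3′, and the capitals mark matches to the motifs searched on both strands. These motifs were the E-box CACGTG, the nuclear receptor half-site AGGTCA, the CCAAT box, the GC box GGGCGG and the TATA box TATAAA. The Mogat1 window is chr1:78510810-78511109 and the first of 3 Lpin2 windows is chr17:71183282-71183581.
Mogat1: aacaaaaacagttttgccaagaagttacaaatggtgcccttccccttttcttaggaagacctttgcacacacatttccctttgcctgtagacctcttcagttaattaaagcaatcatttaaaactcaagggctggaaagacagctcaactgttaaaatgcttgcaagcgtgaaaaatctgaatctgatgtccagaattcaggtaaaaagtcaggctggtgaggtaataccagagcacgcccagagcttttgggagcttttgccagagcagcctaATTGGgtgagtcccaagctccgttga
Lpin2: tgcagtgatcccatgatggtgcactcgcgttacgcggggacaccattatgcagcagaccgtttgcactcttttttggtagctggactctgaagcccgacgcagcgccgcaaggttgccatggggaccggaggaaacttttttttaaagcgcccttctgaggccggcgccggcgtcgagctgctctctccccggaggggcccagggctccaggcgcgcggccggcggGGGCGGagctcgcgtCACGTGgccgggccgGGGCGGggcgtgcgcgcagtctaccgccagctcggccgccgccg

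The Mogat1 window held 1 CCAAT box, on the minus strand (capitals read ATTGG), and no match to the other 4 motifs, with a GC content of 43.7%. The first Lpin2 window held 1 E-box and 2 GC boxes at a GC content of 68.7%. Across all 32851 windows the median GC content was 52.7%, and a CCAAT box was found in 37.4%, a GC box in 35.7%, a nuclear receptor half-site in 16.3%, a TATA box in 13.6% and an E-box in 7.15%. Windows were found for 7 of the 9 genes, 10 windows in all, of which 5 held a GC box, 3 a CCAAT box, 2 a half-site, 1 an E-box and 0 a TATA box. Dgat1 and Dgat2 had no window. Letter matches describe these windows and say nothing of which factor binds there.

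Values are log2 intensities after background correction and quantile normalisation, and a probe counts as detected on an array where its deposited detection p-value is below 0.05. The mean intensity of an array before normalisation ran from 300.0 to 461 over the female arrays and from 170.0 to 309 over the male arrays. Of the 4 dimmest female arrays, 3 were high-fat after 9% and 1 was high-fat after 18%; of the 4 dimmest male arrays, 2 belonged to each high-fat group. All 12 hepatocyte markers were detected in females and all 11 with a probe in males. Of 10 adipocyte markers with a probe, 2 in females and 3 in males were detected on at least 4 arrays. Liver itself expresses Car3 and Pck1, detected on all 16 arrays of both sexes, whereas Plin1, Fabp4, Lep and Aqp7 were detected on 0 arrays of either sex.

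Mogat1 rose on the high-fat diet in females of low-protein mothers and, averaged over both maternal diets, in both sexes. In females after 9%, its level was 7.59, 6.61, 6.49 and 5.53 on the high-fat diet, against 4.70, 4.88, 4.78 and 4.64 on the control diet. These groups did not overlap, and the probe was detected on 4 of 4 high-fat arrays and 0 of 4 control arrays. The difference was 1.80 ± 0.41 (log2, SE; limma adjusted p = 0.0258). Every control array was below the detection threshold, so the fold is given as a bound, at least 2.69 at a background offset of 16. For it, each control array entered at the dimmest signal detected on that array, or at the Mogat1 value itself where this was higher. The bound leaves out sampling error, and with an offset of 50 the fitted log2 difference itself was 1.105. The means were 6.55 ± 0.84 on the high-fat diet and 4.75 ± 0.10 on the control diet (SD, n = 4 each). Mogat1 was the 1 of 9 genes called in this comparison, in which 4.35% of all features were called. The call was lost when any 1 of 6 arrays was left out (replicates 1, 2 or 3 of the high-fat group, and 1, 3 or 4 of the control group), at adjusted p-values of 0.0536 to 0.0709.

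In females after 18%, Mogat1 stood at 7.21, 5.38, 4.80 and 5.44 on the high-fat diet, against 4.80, 4.90, 4.66 and 4.63 on the control diet. Of the 4 high-fat arrays, 1 was far above the rest, 2 were moderately above the control arrays and 1 lay among them. It was detected on 3 of 4 high-fat and 0 of 4 control arrays, and the difference of 0.96 ± 0.41 missed the threshold (limma adjusted p = 0.372). With the control arrays entered as after 9%, the fold at the offset of 16 was 1.46. The undetected high-fat array entered at its own value, so this is not a strict lower bound. None of the 9 genes was called here by limma, with 2 of them at an unadjusted p under 0.05 (11.9% of all features were), while 0.0847% of all features were called. The fitted interaction, taken from control groups below detection, missed the threshold as well (adjusted p = 0.885).

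The 4 female arrays with the highest Mogat1 level were also the 4 dimmest arrays before normalisation. Among the high-fat females after 9%, the arrays with Mogat1 at 7.59, 6.61 and 6.49 had a mean raw intensity of 349, 313 and 300.0, whereas the array with 5.53 had 409. With the raw brightness of each array as a covariate, the Mogat1 difference after 9% was 1.12 (adjusted p = 0.472) and 3 features in all were called in place of 411. Leaving out the 4 dimmest arrays, chosen after seeing the data, kept 1 high-fat array after 9%, assumed to vary like the other groups, and gave 0.78 (adjusted p = 0.352), with 0 features called. Before any scaling between arrays, the raw Mogat1 intensity was 139, 58.9, 50.8 and 31.5 in the high-fat females after 9%, against 6.35, 12.5, 9.38 and 2.82 in their controls. The raw values did not overlap between these groups either, and the array with the highest of them, 139, ranked 4 from the dimmest of the 16. The part of array brightness in the Mogat1 difference was not tested.

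In males after 9%, Mogat1 was 5.52, 7.23, 5.06 and 5.76 on the high-fat diet, against 4.42, 4.85, 4.36 and 4.33 on the control diet. In males after 18% it was 6.08, 5.51, 5.31 and 7.33 on the high-fat diet, against 4.59, 4.50, 4.48 and 4.39 on the control diet. Neither pair of groups overlapped, every high-fat array detected the probe and no control array did, and in each high-fat group 1 array stood well above the rest. The difference was 1.40 ± 0.40 after 9% and 1.57 ± 0.40 after 18%. The bounds at the offset of 16 were at least 2.13-fold and at least 2.31-fold. Each missed the threshold on its own, with limma adjusted p-values of 0.227 and 0.0975. After 18% in males the call depended on the setting, since it passed with median scaling (adjusted p = 0.0474), with array weights (0.0400), without the 4 dimmest arrays (0.0219) and without high-fat replicate 2 of the 9% group (0.0299). None of the 8 genes tested in males was called after either maternal diet, with 2 after 9% and 3 after 18% at an unadjusted p under 0.05, as were 10.1% and 14.9% of all features. The share called among all features was 0.107% after 9% and 0.631% after 18%.

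**Figure D1:**
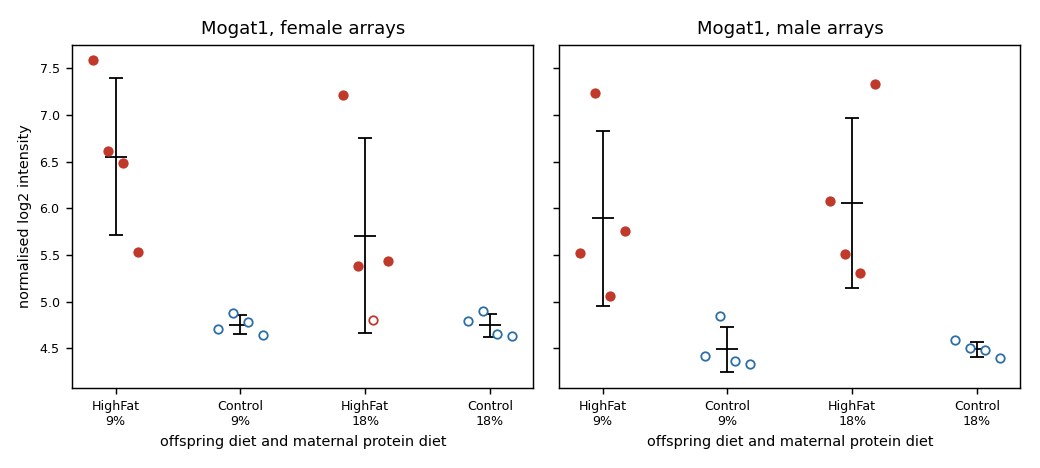
Normalised log2 intensity of the Mogat1 probe (vertical axis) on each array, by offspring diet and maternal protein diet (horizontal axis), females left and males right. Filled points are arrays on which the probe was detected and open points arrays on which it was not; bars are the group mean and SD (n = 4). High-fat arrays reach 7.59 in females and 7.33 in males, and no control array is above 4.90 or 4.85.

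Averaged over the 2 maternal diets, the high-fat difference in Mogat1 was 1.38 ± 0.29 in females (limma adjusted p = 0.00985) and 1.49 ± 0.29 in males (adjusted p = 0.0123). It was the 1 gene of the set called in each sex, where 8.78% of all female features and 2.06% of all male features were called. No control array detected the probe, so these fitted values depend on the floor. From the values given for each maternal diet, the averaged fold was 1.98 in females and at least 2.22 in males. The female value includes the undetected high-fat array after 18% at its own value, so it is not a strict lower bound. On the log2 scale these values are 0.99 and 1.15. They leave out sampling error and hold for the offset of 16 alone. With a background offset of 50 in place of 16 the fitted differences were 0.84 in females (adjusted p = 0.0190) and 0.83 in males (adjusted p = 0.0369). In males both raw-brightness settings kept the call, at 1.46 with the covariate (adjusted p = 0.0474) and 1.11 without the 4 dimmest arrays (adjusted p = 0.00602). In females both ended it, at 0.88 (adjusted p = 0.261) and 0.62 (adjusted p = 0.0960). Mogat1 passed the filter on dim probes through its high-fat arrays alone, 7 in females and 8 in males, so its place among the tested genes itself reflects the difference. With no filter the averaged adjusted p-values were 0.0129 in females and 0.0136 in males.

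The sexes were compared by setting the male high-fat effect against the female one over 6941 genes tested in both, of which 4686 shared the probe, as Mogat1 did. Both Mogat1 effects are differences from control groups below detection, on array versions with different floors, so the size of a sex difference in Mogat1 is not given. For none of the 8 genes did limma call a sex difference. The shares called among all genes were 0% after 9% (505 at an unadjusted p under 0.05), 0% after 18% (741) and 0.0432% for the average.

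Signal from other cells was looked at beside Mogat1. In bulk tissue, a change in how many cells of a type are present and a change in RNA per cell cannot be told apart. The summed linear intensity of the 10 adipocyte markers ran from 7419 to 16240 in high-fat females after 9% and from 9402 to 14870 in their controls, and after 18% from 9449 to 10600 in high-fat females and from 9316 to 13990 in controls. In males after 9% it ran from 16260 to 17510 on the high-fat diet and from 12960 to 16550 on the control diet, and after 18% from 13600 to 16520 on the high-fat diet and from 14760 to 17800 on the control diet. These ranges overlapped in each pair. Of the 10 probes, 7 in females and 4 in males were never detected. Car3 and Pck1, which liver itself expresses, were the only 2 detected on at least 4 female arrays. The sums therefore cannot show whether signal from fat cells changed. Of this list, Cidea (a lipid droplet protein that fatty liver also makes) was called in males, by 3.66 ± 0.43 averaged over maternal diets (adjusted p = 0.000247), and was detected on 9 of 16 male and 1 of 16 female arrays. Adipoq, a secreted protein typical of fat cells, was detected on 0 female arrays and 1 male array.

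Single markers of several cell types also fell in the comparisons that called Mogat1, while other members of their lists went the other way. In high-fat females after 9% these were Hgf of the stellate list, by 0.67 ± 0.16 on the log2 scale (adjusted p = 0.0303), and Stab2 of the endothelial list, by 0.41 ± 0.10 (adjusted p = 0.0341). Averaged over maternal diets in females, 2 of 12 hepatocyte markers (Cps1 at -0.49 and Fga at -0.20), 2 of 9 stellate markers (Reln at -0.34 and Hgf at -0.38) and 1 of 3 cholangiocyte markers (Cdh1 at -0.55) were called. In males the averaged comparison called Tdo2, 1 of 11 hepatocyte markers, at -0.32 and Cela2a, 1 of 3 exocrine pancreas markers, at -0.45. Positive differences were found for 5 of 9 stellate and 2 of 7 endothelial markers in females after 9%. Averaged in females, 6 of 12 hepatocyte, 3 of 9 stellate and 1 of 3 cholangiocyte markers were positive. Averaged in males, 4 of 11 hepatocyte and 1 of 3 exocrine pancreas markers were. Among all features, 4.35%, 8.78% and 2.06% were called in these comparisons, in that order. In females after 9%, cholangiocyte intensities summed to 193 to 236 on the high-fat diet and 267 to 417 on the control diet. These sums did not overlap, and neither did 10.9% of all single features. By gene, 2 of its 3 tested markers had a positive high-fat difference (median 0.145), and none was called. Linear sums weigh the brightest probes most, and 2 of the 5 probes summed were never detected. The stellate list summed to 12360 to 15120 on the high-fat diet and 12980 to 16920 on the control diet, and the endothelial list to 5215 to 6024 and 5855 to 6958 on the high-fat and control diets. Of 8 macrophage markers in females, 1 had a positive high-fat difference after 9% and 8 after 18%, and 0 were called. Of all features, 49.8% after 9% and 50.7% after 18% were positive, and 4.35% and 0.0847% were called. Macrophage sums after 9% were 5905 to 9544 on the high-fat diet and 6218 to 11190 on the control diet, and after 18% 6669 to 9245 on the high-fat diet and 5110 to 8868 on the control diet. The part of other cell types in the Mogat1 result was not tested.

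The genes whose pattern over 16 arrays was most like that of Mogat1 were found by Pearson correlation, as a description. In females these were Fitm1 (r = 0.961), a membrane protein of lipid droplet formation, Lgals1 (0.960), a galactose-binding lectin, and Mtnr1a (0.954), a melatonin receptor. In males they were Nt5e (0.956), the ecto-enzyme CD73, Lgals1 again (0.951) and Anxa5 (0.948), a phospholipid-binding annexin. Lgals1 was on both lists. After subtraction of the group means the female correlations lay between 0.895 and 0.945 and the male ones between 0.881 and 0.922. The genes were picked on these same arrays, so high values within groups follow in part from the choice. All points share the arrays, their brightness and their diets. Spearman's correlations of the same genes with Mogat1 ran from 0.800 to 0.909 in females and from 0.788 to 0.921 in males. Mogat1 was below detection on every control array, so its values there have no order.

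At the first acylation, Gpam ran from 6.53 to 8.66 over the 16 female arrays and from 5.14 to 7.88 over the 16 male arrays, the widest range among the genes detected on every male array. Its high-fat difference was 0.13 ± 0.35 after 9% and -0.32 ± 0.35 after 18% in females, and 0.43 ± 0.37 and 0.06 ± 0.37 in males. The adjusted p-values of these 4 lay between 0.733 and 0.954. The spread within groups came to as much as 1.01 (SD, control males after 9%), whose arrays read 7.13, 5.14, 7.38 and 6.31. The 95% interval in males after 9%, which uses the spread fitted over all 4 male groups, includes high-fat differences of up to 1.20.

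At the second acylation, Agpat2 (the enzyme lost in a congenital lipodystrophy of humans) differed by 0.32 ± 0.20 after 9% and by -0.00308 after 18% in females, high-fat against control. In males it read 10.90, 10.61, 11.01 and 10.81 on the high-fat diet after 9%, against 10.66, 9.82, 10.12 and 10.39 on the control diet. The lowest high-fat array lay below the highest control array, and the difference of 0.58 ± 0.24 missed the threshold (adjusted p = 0.430). Agpat3 in males after 18% read 9.34, 9.28, 9.13 and 9.33 on the high-fat diet, against 8.98, 8.82, 9.10 and 8.76 on the control diet. These groups did not overlap by a narrow margin, and the difference of 0.35 ± 0.12 was not called (adjusted p = 0.187). In females the Agpat3 difference was 0.17 after 9% and 0.16 after 18%, each with an SE of 0.14.

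At the phosphatase step, Lpin1 could be tested in females alone, by 1 probe that is not among the male probes annotated to it. That probe was detected on all 16 female arrays and ran from 8.14 to 10.60. Its high-fat difference was 0.26 ± 0.42 after 9% and 0.44 ± 0.42 after 18%, with adjusted p-values of 0.765 and 0.714. Of the probes common to both versions, 1 was detected on 1 female and 2 male arrays and the other on 0 arrays of either sex, so the probes of this gene disagree and the level of Lpin1 in males is not known from these arrays. Lpin2, measured by different probes in the sexes, differed by 0.41 ± 0.21 after 9% and 0.09 ± 0.21 after 18% in females. In males after 18% it read 7.91, 8.20, 8.80 and 8.68 on the high-fat diet, against 7.73, 9.46, 9.32 and 9.29 on the control diet. All but 1 of the control arrays lay above every high-fat array, and the difference was -0.55 ± 0.30 (adjusted p = 0.394). Without control replicate 1, the array at 7.73, it was -0.96 and passed the threshold (adjusted p = 0.0432).

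At the last acylation, Dgat1 in females after 18% read 6.85, 6.68, 6.53 and 6.53 on the high-fat diet, against 6.09, 6.49, 6.21 and 6.45 on the control diet. In males after 9% it read 7.08, 7.06, 7.20 and 7.06 on the high-fat diet, against 6.72, 7.02, 6.99 and 6.71 on the control diet. In both cases the groups lay side by side without overlap, but the differences were small, at 0.33 ± 0.15 (adjusted p = 0.399) and 0.24 ± 0.15 (adjusted p = 0.627). Dgat1 was measured by different probes in the sexes. Dgat2 in males after 18% read 11.62, 12.91, 13.00 and 12.38 on the high-fat diet, against 13.16, 13.25, 13.34 and 13.12 on the control diet. Every high-fat array was below every control array, and the difference was -0.74 ± 0.26 (adjusted p = 0.202). In females after 18% the Dgat2 difference was 0.01 ± 0.17. The male minus female difference of -0.75 (95% interval -1.42 to -0.09) did not pass after adjustment over all genes (adjusted p = 0.427).

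At the exit, Mttp ran from 8.72 to 9.69 over the female arrays and from 8.25 to 9.32 over the male arrays. Its averaged high-fat difference was 0.01 ± 0.11 in females and -0.07 ± 0.13 in males. The adjusted p-values were 0.961 and 0.836. Its 95% intervals of -0.23 to 0.25 in females and -0.35 to 0.22 in males bound the differences that these arrays leave possible.

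Counts without overlap between high-fat and control arrays were read against all features. In females 1 of 9 genes did not overlap after 9% (Mogat1) and 1 after 18% (Dgat1), where 10.9% and 7.27% of all features did not. In males 2 of 8 did not overlap after 9% (Mogat1, Dgat1) and 3 after 18% (Mogat1, Dgat2, Agpat3), where 7.63% and 6.86% of all features did not. The sign of the difference was positive for 7 of 9 genes in females after each maternal diet, and for 7 of 8 in males after 9% and 4 of 8 after 18%. Over all features it was positive for 49.8% and 50.7% in females after 9% and 18%, and for 46.4% and 51.1% in males. The median difference over the set was 0.17 and 0.09 in females after 9% and 18%, against -0.00123 and 0.00282 over all features. In males it was 0.19 and -0.000098, against -0.019 and 0.00741 over all features.

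**Figure D2:**
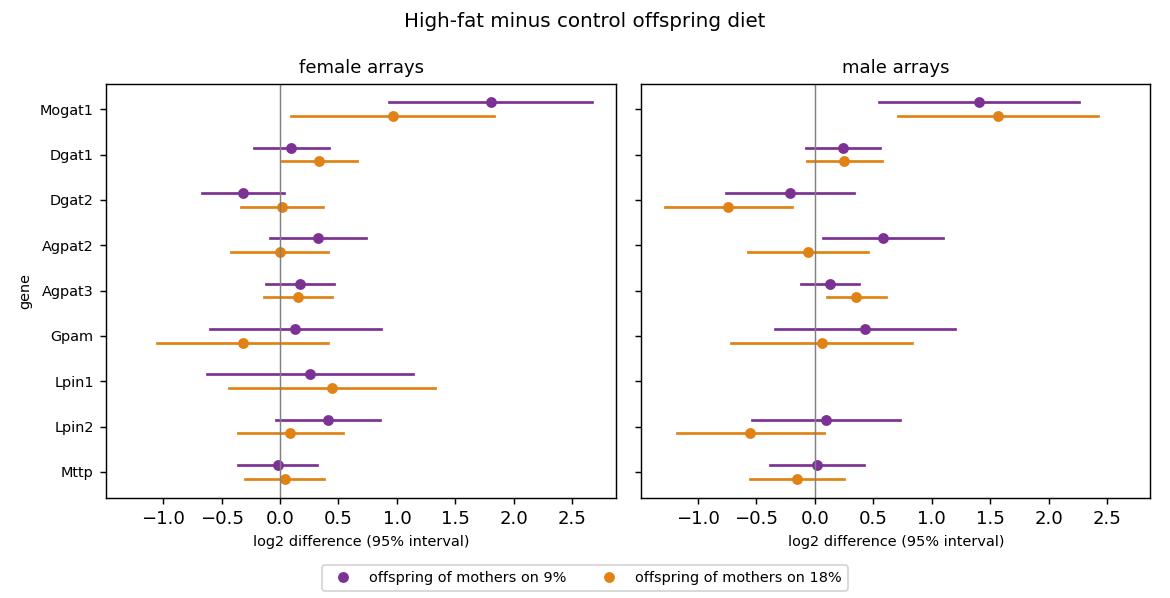
High-fat minus control difference (log2, horizontal axis) for each of the 9 genes (vertical axis), females left and males right; points are limma estimates for offspring of mothers on 9% and on 18%, and lines their 95% intervals. Mogat1 lies farthest to the right in all 4 series, at 1.80 and 0.96 in the female panel and at 1.40 and 1.57 in the male panel. Its control groups were below detection, so its points and intervals depend on the floor. Lpin1 has no male estimate.

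**Figure D3:**
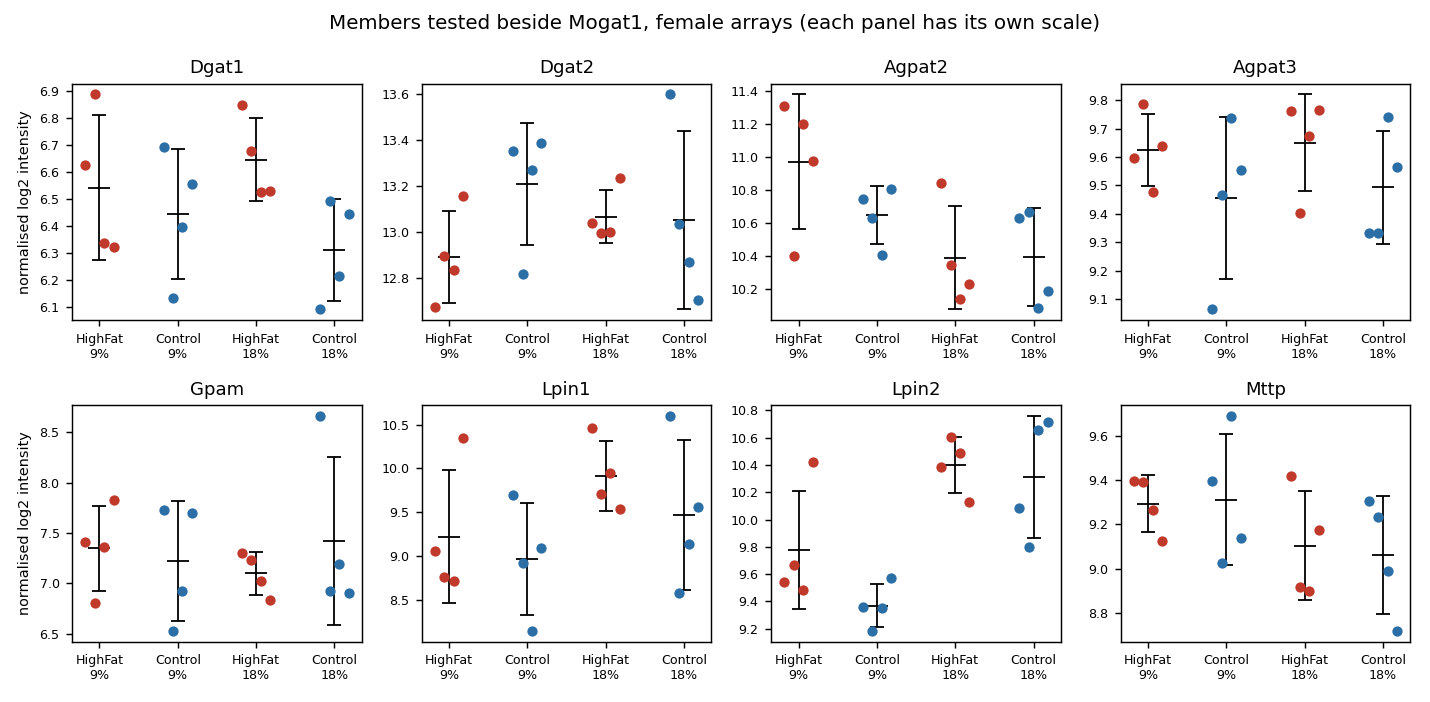
Normalised log2 intensity (vertical axis, its own scale in each panel) of the other 8 genes on the 16 female arrays, by offspring diet and maternal protein diet. Points are arrays and bars the group mean and SD (n = 4). The Lpin2 panel shows all 4 control-diet arrays after 9% between 9.18 and 9.57, below the control-diet arrays after 18%.

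The maternal diet was compared within each offspring diet, and the gene of the set with the clearest separation was Lpin2 in females. On the control diet, Lpin2 read 9.36, 9.18, 9.35 and 9.57 in daughters of 9% mothers, against 10.09, 9.79, 10.66 and 10.71 in daughters of 18% mothers. Every array after 9% was below every array after 18%, and the difference was -0.95 ± 0.21 (0.519-fold). Its unadjusted p of 0.000342 ranked 6 among 9446 features, and the limma adjusted p was 0.398. Across the 27 settings tried it lay between -1.12 and -0.81, and the adjusted p between 0.0733 and 0.869.

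On the high-fat diet, Lpin2 read 9.54, 9.67, 9.48 and 10.42 after 9%, against 10.38, 10.61, 10.49 and 10.13 after 18%. Of the 4 arrays after 9%, 3 lay below all arrays after 18% and 1 lay among them. The difference was -0.62 ± 0.21 (adjusted p = 0.428). Leaving out the 4 dimmest arrays, which removed those 3, gave 0.01. In males the Lpin2 difference was 0.57 ± 0.30 on the high-fat diet and -0.07 ± 0.30 on the control diet, measured by another probe, with adjusted p-values of 0.694 and 1.00.

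Agpat2 in high-fat females read 11.31, 10.40, 11.20 and 10.97 after 9%, against 10.84, 10.34, 10.14 and 10.23 after 18%. All but 1 of the arrays after 9% were above every array after 18%, and the difference was 0.58 ± 0.20 (adjusted p = 0.428). Lpin1 differed by -0.69 ± 0.42 on the high-fat diet and -0.50 ± 0.42 on the control diet. Mogat1 differed by 0.85 ± 0.41 in high-fat females (adjusted p = 0.530), whereas both of its female control-diet groups were below detection. Gpam in control-diet males differed by -0.67 ± 0.37 (adjusted p = 1.00), and its control group after 9% includes the array at 5.14.

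In females, limma called none of the 9 genes for the maternal diet, with 2 at an unadjusted p under 0.05 on the high-fat diet and 1 on the control diet. It called 0% of all features in females on either offspring diet, with 898 and 593 at an unadjusted p under 0.05. In males, none of the 8 genes was called or at an unadjusted p under 0.05, and 0% of all features were called, with 713 on the high-fat and 379 on the control diet at an unadjusted p under 0.05. Groups did not overlap for 0 of 9 genes on the high-fat and 1 of 9 on the control diet in females, where 4.33% and 3.18% of all features did not. In males 0 of 8 did not overlap on either diet, where 3.38% and 2.83% of all features did not. The interaction of maternal and offspring diet called 0% of features in either sex (500 in females and 699 in males at an unadjusted p under 0.05), and no gene of the set reached an unadjusted p under 0.05.

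**Figure D4:**
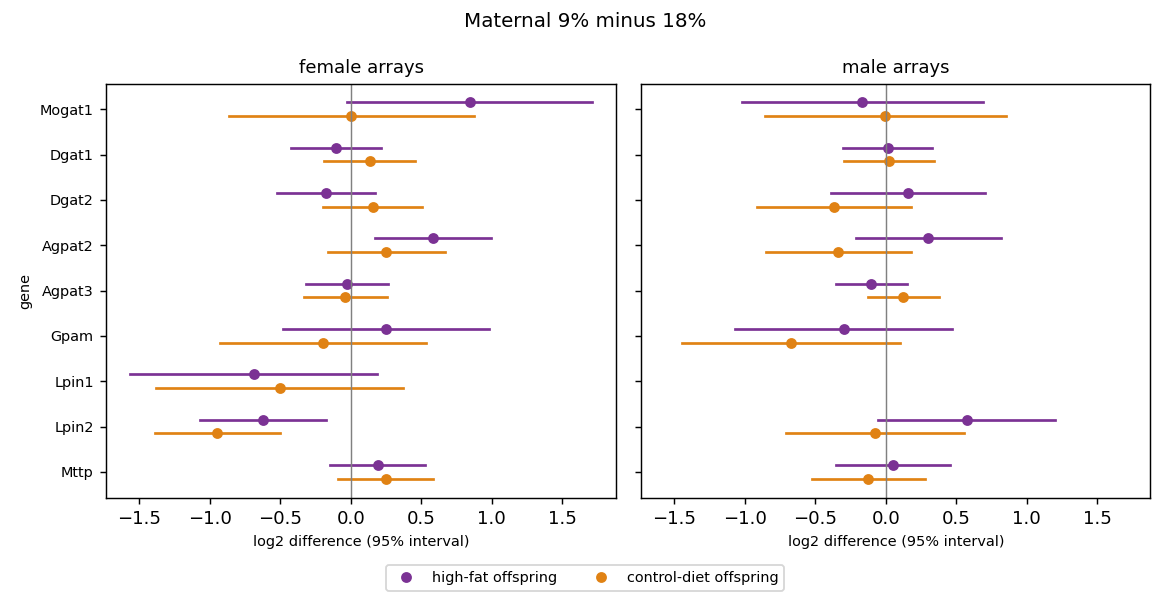
Maternal 9% minus 18% difference (log2, horizontal axis) for each gene (vertical axis), females left and males right; points are limma estimates for high-fat and for control-diet offspring, and lines their 95% intervals. Lpin2 in females lies at -0.62 and -0.95 with intervals below 0, and in males at 0.57 and -0.07 with intervals that include 0.

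**Figure D5:**
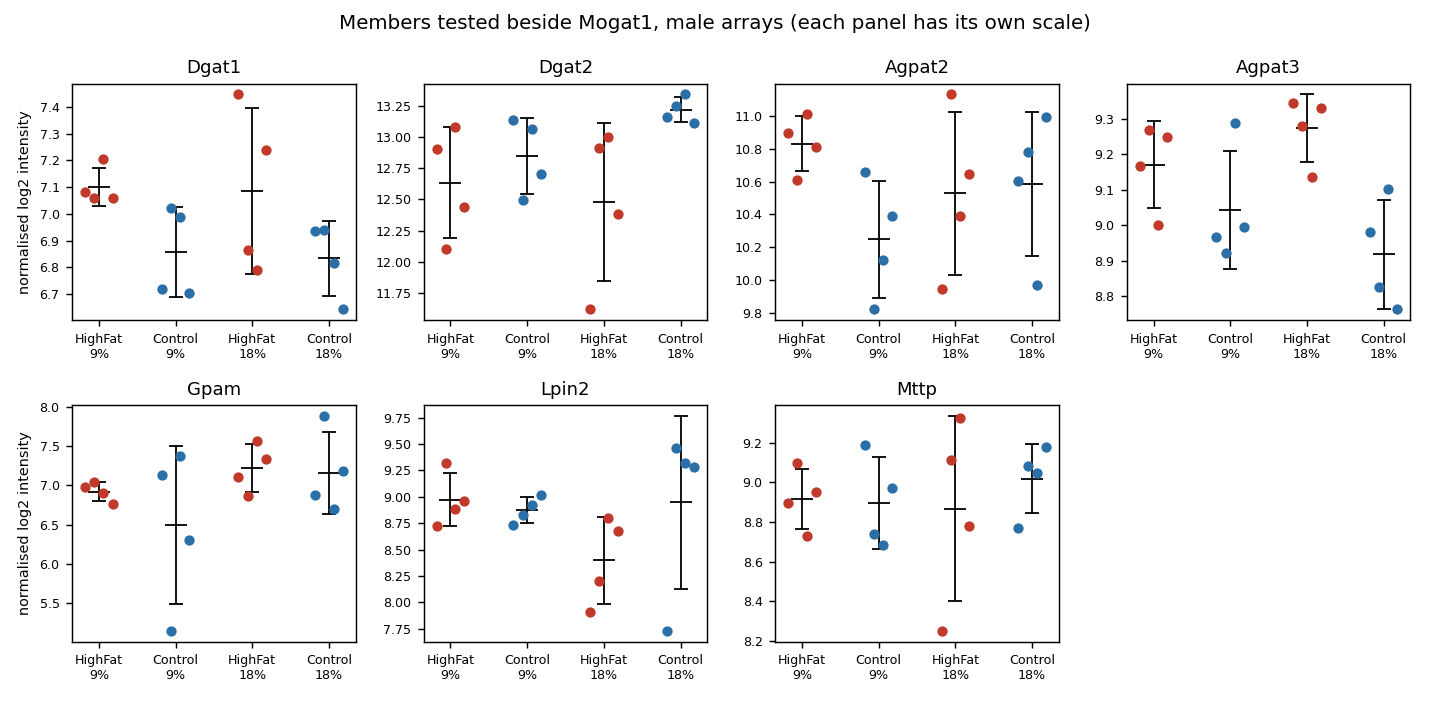
Normalised log2 intensity (vertical axis, its own scale in each panel) of 7 genes on the 16 male arrays, by offspring diet and maternal protein diet. Points are arrays and bars the group mean and SD (n = 4). The Dgat2 panel shows the high-fat arrays after 18% between 11.62 and 13.00, below the control arrays at 13.12 to 13.34, and the Lpin2 panel the lone control array after 18% at 7.73.

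Around the set, 5 lists of related genes were counted. Of 14 other acyltransferases and phosphatidate phosphatases, 10 were tested in females and 9 in males, and 0 were called in any comparison. The share called among all features ran from 0% to 8.78% over these comparisons, so a count of 0 in so short a list says little. The median high-fat difference of this list, averaged over maternal diets, was 0.04 in females and 0.07 in males. Over all features it was 0.00243 and -0.00281.

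Of the genes that supply glycerol 3-phosphate and acyl-CoA, 1 of 9 tested in females was called, where 4.35% (after 9%) and 8.78% (averaged) of all features were. This was Acsl5, an acyl-CoA synthetase, which rose on the high-fat diet by 0.58 ± 0.13 after 9% (adjusted p = 0.0225) and by 0.39 ± 0.09 on average (adjusted p = 0.0160). In males 0 of 7 were called. Of the phospholipid branch that draws on the same intermediates, 0 of 9 were called in females and 1 of 10 in males (2.06% of all male features in the averaged comparison), Chpt1 (cholinephosphotransferase, which uses diacylglycerol), by 0.56 ± 0.12 on average (adjusted p = 0.0218).

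Of the genes of VLDL assembly and secretion beside Mttp, 2 of 11 were called in females and 0 of 11 in males in the averaged comparison, where 8.78% of all female and 2.06% of all male features were. Sort1, a sorting receptor, fell on the high-fat diet in females by 0.86 ± 0.22 on the log2 scale after 9% (adjusted p = 0.0386) and by 0.80 ± 0.15 on average (adjusted p = 0.00674). Tango2 rose by 0.26 ± 0.07 on average in females (adjusted p = 0.0426).

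Of the transcriptional regulators, 3 of 12 were called in females and 1 of 11 in males in the averaged comparison, against 8.78% of all female and 2.06% of all male features. Pparg, the nuclear receptor that drives fat storage genes, rose in males by 1.70 ± 0.30 after 18% (adjusted p = 0.0196) and by 1.53 ± 0.21 on average (adjusted p = 0.00108), and in females by 0.68 ± 0.19 on average (adjusted p = 0.0380). Ppara, which drives fatty acid oxidation genes, rose in females by 0.55 ± 0.14 after 9% (adjusted p = 0.0405) and by 0.48 ± 0.10 on average (adjusted p = 0.0103). Hnf4a, a hepatocyte regulator, fell in females by 0.32 ± 0.09 on average (adjusted p = 0.0313). The female calls of these lists stand beside the brightness of the arrays given above, under whose covariate the averaged high-fat comparison called 11 features in all in place of 829.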

How the data were processed

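Liver RNA was measured on 32 bead arrays, 16 per sex, each sex on its own array version. The submitters' processing notes name BeadStudio, with no version given in the sources used here. Per the file headers, the authors deposited an intensity and a detection p-value per probe and array; these intensities include negative values and were not scaled between arrays. Their other deposited intensities were normalised, with array medians of 13.5 to 13.6 in females and 8.58 to 8.65 in males. They served as an alternative.

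Intensities were background corrected and quantile normalised per sex with neqc in limma 3.58.1 (R 4.3.3), using an offset of 16 and background estimated through the detection p-values. Probes detected (p below 0.05) on at least 4 of 16 arrays were kept, and each gene was tested by its probe with the highest mean. All 4 groups of one sex entered 1 fit (lmFit, eBayes with trend, two-sided), with Benjamini-Hochberg adjustment over all features and a threshold of 0.05. Sex differences came from 1 fit of all 8 groups. The steps were tested on simulated data, and figures were drawn with matplotlib 3.10.9. The number of arrays limits the precision.

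The 9 genes and all lists were chosen with earlier results of these data known. From each pathway list, up to 4 called genes per comparison are named, with the smallest adjusted p; the 3 genes most like Mogat1 were taken by Pearson's r alone. The bound on a fold uses normalised log2 means at the offset of 16 and leaves out sampling error. High-fat arrays entered it at their own values, detected or not. Replicate numbers were not used to pair the arrays in the main fit. Alternatives covered scaling, offset, filter, probe choice, variance model, array weights, raw brightness, the samples fitted, a replicate block and leaving out each array.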

Additional observations from a re-analysis of the deposited data

Results flagged for a closer look

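Of 68 groups of 4 arrays examined for the 9 genes, 3 held an array far from the other 3 by Dixon's ratio at its 95% critical value; chance flags about 1 in 20 groups. Dgat1 in high-fat males after 9% was 7.20 in replicate 3, with the other arrays at 7.06 to 7.08 (ratio 0.847). Gpam in control-diet females after 18% was 8.66 in replicate 1, with the other arrays at 6.91 to 7.19 (ratio 0.839). Lpin2 in control-diet males after 18% was 7.73 in replicate 1, with the other arrays at 9.29 to 9.46 (ratio 0.899), and without this array the high-fat difference of Lpin2 after 18% in males passed the threshold.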

How the results depend on the processing

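Over 3746 values of a gene's difference under an alternative, none reversed a call, 10 lost one and 5 gained one, of which 1 concerned Lpin2 and the others Mogat1, while 15 uncalled differences changed sign by more than their SE. Over 449 counts of called genes, 434 were unchanged. The count in females after 9% (high-fat) was 0 in place of 1 with the raw intensity covariate and without the 4 dimmest arrays, and 0 to 1 when 1 array was left out. It was lost without replicates 1, 3 or 4 of the control group after 9% and without replicates 1, 2 or 3 of the high-fat group after 9%, where the Mogat1 difference was 1.46 to 1.82 and the adjusted p 0.0536 to 0.0709; fewer arrays enter these fits. The averaged count in females was 0 in place of 1 with the raw intensity covariate and without the 4 dimmest arrays. In males after 18% the count was 1 in place of 0 with median scaling, with array weights and without the 4 dimmest arrays, and 0 to 1 when 1 array was left out. The cause was not tested. Same-numbered arrays correlated at -0.201 to 0.320 in females and -0.157 to 0.490 in males, and 10 of 24 pairs in each sex were above 0.1. Their median was 0.0571 in females and 0.0616 in males, against -0.0305 and -0.0112 for other pairs. In females 7 and in males 10 of 16 arrays correlated best with their own number, so a link by number is not excluded. With the replicate block, the averaged Mogat1 difference was 1.38 in females (adjusted p = 0.00503) and 1.49 in males (0.0141), and that after 9% in females 1.80 (0.0123), and no count of called genes changed. With an offset of 50 the averaged Mogat1 differences were 0.84 and 0.83, and with the deposited normalised values 1.61 and 1.86. Mogat1 on control diets was below detection, so its levels there have no order.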
